A study of Drosophila melanogaster with 3 samples.

Results

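The regions described here are 210 ChIP-seq peaks of the CG15011 protein whose summits, the positions of highest signal within a peak, lie 1 to 500 bp downstream of the nearest transcription start site (TSS) of a protein-coding gene. They were selected from the 3237 peaks of the authors' optimal set, in which 1067 summits lie 1 to 500 bp upstream of the nearest such TSS and 1 summit lies on the TSS base itself. The assay was chromatin immunoprecipitation followed by sequencing of whole Drosophila melanogaster embryos, males and females pooled, aged 0 to 24 h. All 3 samples were biological replicates of a single group, a transgenic line that stably expresses CG15011 fused at its C-terminal end to GFP, the green fluorescent protein. No untreated or untagged group was analysed here, and on the promoter that drives the transgene nothing is given in the sources used here. The 3 samples carry the words input control in a text label, yet in the deposited notes each has peaks called from its own reads against another control library. They are treated here as immunoprecipitated. Sonication gave fragments of 200 to 800 bp, longer than many of the distances described below.

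A TSS is the first transcribed base of a gene, and the core promoter around it is where RNA polymerase II and the general transcription factors assemble. Just downstream lie the 5′ UTR, which is transcribed but not translated, then the coding sequence, and often a first intron, which in flies can hold enhancers. Many fly genes have several start sites, and neighbouring genes on opposite strands often share the short stretch between their starts, so that a site downstream of a first TSS may be upstream of a second.

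The intron results below rest on summits outside the annotated exons of the gene whose TSS was nearest. Exons of other genes did not enter that annotation. The distance results rest on all members, most of them exonic. Given below are 8 of the strongest members whose window of 75 bp on each side of the summit overlapped no annotated exon. Members on the chromosome arm that carries the gene wun were left out of this choice, so any stronger window there is not shown. The 8 windows are read 5′ to 3′ along the gene's own strand, with the summit at base 76 of 151. They come from Fer2LCH (the ferritin light chain, which stores iron), CG31612, bchs (an adaptor of autophagy), scramb2 (a phospholipid scramblase), Cftr (named for the human chloride channel), rudhira, Ptp4E (a receptor tyrosine phosphatase) and Eip63F-1 (an ecdysone-induced calcium-binding protein). On Release 6 of the genome (dm6) the windows are chr3R:30388414-30388564 on the plus strand for Fer2LCH, chr2L:21794914-21795064 on the minus strand for CG31612, chr2L:5907540-5907690 on the plus strand for bchs and chr3L:3046353-3046503 on the minus strand for scramb2. The other windows are chr3R:24543157-24543307 on the minus strand for Cftr, chrX:11818540-11818690 on the plus strand for rudhira, chrX:4939887-4940037 on the plus strand for Ptp4E and chr3L:3928636-3928786 on the minus strand for Eip63F-1. Capitals mark matches to any of the 12 motifs listed further on.
Fer2LCH: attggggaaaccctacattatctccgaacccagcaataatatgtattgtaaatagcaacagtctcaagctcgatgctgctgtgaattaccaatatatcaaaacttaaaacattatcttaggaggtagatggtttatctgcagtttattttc
CG31612: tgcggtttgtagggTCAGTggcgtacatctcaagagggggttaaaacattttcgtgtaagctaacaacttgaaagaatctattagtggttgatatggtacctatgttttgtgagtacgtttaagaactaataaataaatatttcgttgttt
bchs: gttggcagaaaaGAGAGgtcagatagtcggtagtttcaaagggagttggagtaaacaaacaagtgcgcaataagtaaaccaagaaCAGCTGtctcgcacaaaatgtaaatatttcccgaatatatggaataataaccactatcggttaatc
scramb2: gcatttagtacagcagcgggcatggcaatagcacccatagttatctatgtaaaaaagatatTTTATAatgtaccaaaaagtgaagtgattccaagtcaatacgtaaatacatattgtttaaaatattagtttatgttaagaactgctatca
Cftr: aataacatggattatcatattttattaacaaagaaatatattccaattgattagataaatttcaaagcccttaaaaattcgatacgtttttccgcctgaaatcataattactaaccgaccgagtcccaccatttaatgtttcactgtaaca
rudhira: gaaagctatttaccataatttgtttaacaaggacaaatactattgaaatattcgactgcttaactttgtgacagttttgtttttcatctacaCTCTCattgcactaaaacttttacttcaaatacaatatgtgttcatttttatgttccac
Ptp4E: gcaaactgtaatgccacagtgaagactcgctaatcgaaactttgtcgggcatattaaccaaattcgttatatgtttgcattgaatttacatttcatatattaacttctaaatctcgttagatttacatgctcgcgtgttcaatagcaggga
Eip63F-1: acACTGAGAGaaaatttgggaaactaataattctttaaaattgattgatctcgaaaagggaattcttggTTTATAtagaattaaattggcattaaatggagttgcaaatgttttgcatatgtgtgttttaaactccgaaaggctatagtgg

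The windows were AT-rich, with a GC content of 28.5% for rudhira to 38.4% for bchs. GAGAG or its complement was present at bchs, rudhira and Eip63F-1, TATAAA or its complement at scramb2 and Eip63F-1, TCAGT or its complement at CG31612 and Eip63F-1, and CAGCTG at bchs. Fer2LCH, Cftr and Ptp4E held none of the 12, so the printed sites shared no motif of those searched.

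Distances were not spread evenly over the 500 bp. The median summit lay 108 bp from its TSS (quartiles 39.75 and 293 bp). The first 50 bp held 65 summits, the next 50 bp held 36, the stretch from 101 to 200 bp held 34, that from 201 to 350 bp held 32 and that from 351 to 500 bp held 43. The nearest were SerRS (seryl-tRNA synthetase) and Gpdh1 (glycerol-3-phosphate dehydrogenase), both at 1 bp, and Rack1 (a ribosome-bound scaffold protein) at 2 bp. The farthest were Ctr1B (a copper transporter) at 500 bp, Septin2 (a cytoskeletal GTPase) at 496 bp and CG45092 at 491 bp. Just outside the limit, Ada2b, a subunit of histone acetyltransferase complexes, had a summit at 501 bp with a signal of 668.0, Sec13 had a summit at 502 bp with 197.2, and CG46339 had a summit at 503 bp with 183.8. Each of these genes also had a member, at 301 bp for Ada2b, 14 bp for Sec13 and 303 bp for CG46339. At Ada2b and CG46339 the peak of the member overlapped the peak left out. The summit on the TSS base itself, at CG10383, had a signal of 228.7. Signal is the authors' value for the strength of each peak, its scaling is unknown, and it is compared here only within the list called on all replicates together.

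**Figure D1:**
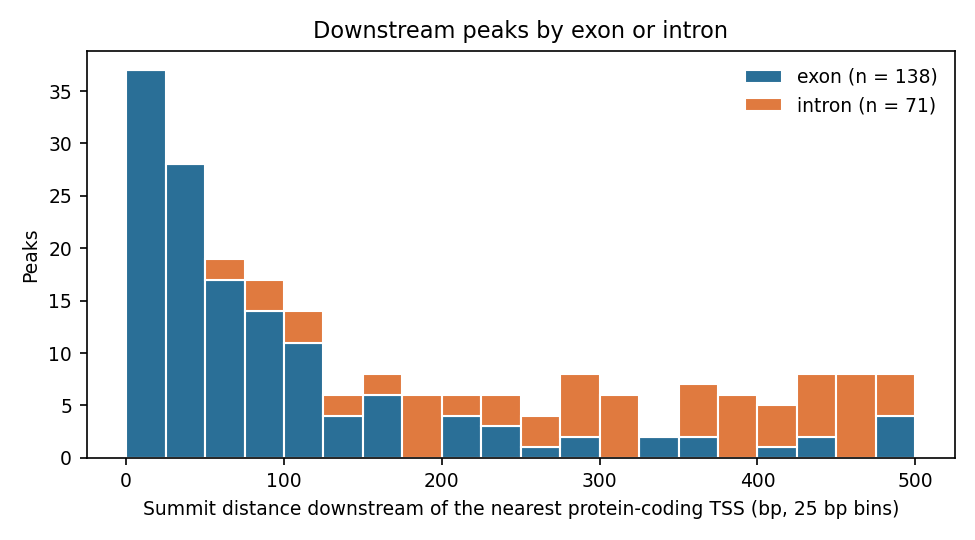
Number of member peaks (y axis) by distance of the summit from the nearest protein-coding TSS in bp (x axis, bins of 25 bp), with summits in exons and in introns of that gene stacked. The 138 exonic summits crowd near the TSS and the 71 intronic ones lie mostly beyond 200 bp. The 1 summit beyond its transcript's end is not drawn.

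Members lay in 5′ UTRs and introns, and hardly ever in coding sequence. Of the 210 summits, 134 (63.8%, exact 95% binomial interval 56.9 to 70.3%) lay in a 5′ UTR, 71 (33.8%, 27.4 to 40.6%) in an intron and 4 (1.90%, 0.521 to 4.80%) in coding sequence, while 1 lay past the end of its transcript. These intervals and those below cover counting error only. By contrast, averaged over the same distances, 30.6% of bases downstream of all protein-coding TSSs were coding, 53.5% were 5′ UTR and 14.9% were intronic. The 1723 weaker pooled peaks outside the optimal set that also had a summit 1 to 500 bp downstream took an intermediate place. Weighted to the members' distances, 14.3% of them were coding, 62.3% were 5′ UTR and 22.2% were intronic. The members' coding share was thus below both backgrounds and their intronic share above both. These shares are a description, and no test over peaks was made, since peaks are not replicates.

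The step from exon to intron followed distance. None of the 65 members within 50 bp was intronic, whereas the intronic share was 13.9% at 51 to 100 bp, 38.2% at 101 to 200 bp, 62.5% at 201 to 350 bp and 76.7% at 351 to 500 bp. Over all bases the intronic share at the same distances was 1.00%, 7.64%, 17.8%, 27.4% and 31.5%. Intronic members had a median distance of 309 bp and exonic ones of 59.5 bp, and with an outer limit of 250 bp the intronic share was 15.6%. First introns held 69 of the 71 intronic summits, and the other 2 were in intron 2 of Sxl, the master gene of sex determination, and of Archease, named for a cofactor of tRNA ligation. Intronic and exonic members had much the same strength, with a median signal of 245.0 for the intronic and 247.7 for the exonic.

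**Figure D2:**
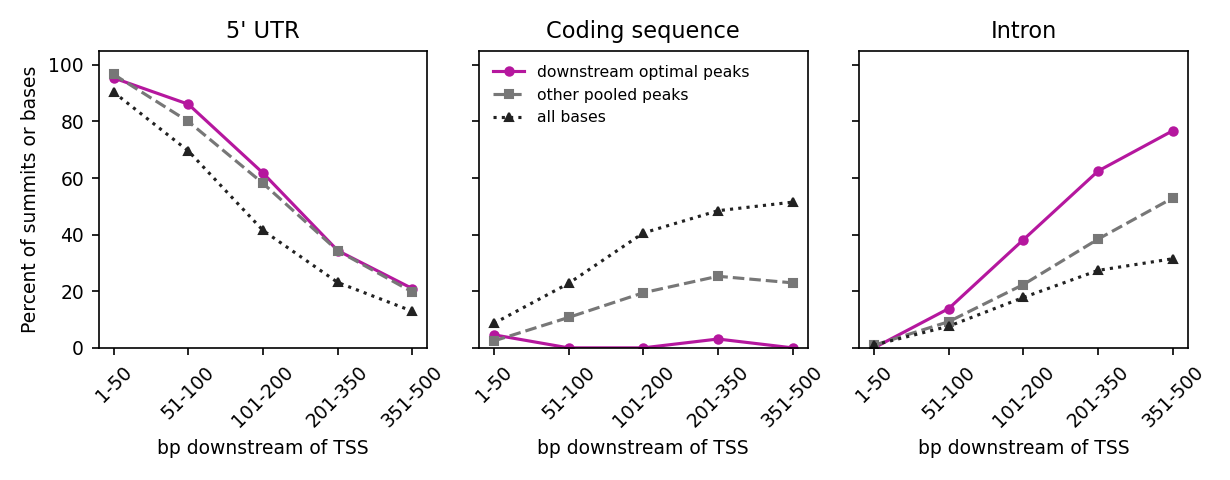
Percent of summits or bases (y axis) that are 5′ UTR, coding sequence or intron in 5 bins of distance downstream of the TSS in bp (x axis), for the 210 members, the 1723 other pooled peaks and all bases downstream of protein-coding TSSs. In the outermost bin 76.7% of members are intronic, against 53.0% of the other pooled peaks and 31.5% of bases.

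The 4 coding summits included 3 of low signal. GstE1, a glutathione S-transferase, had a summit 45 bp from its TSS with a signal of 282.8, CG32195 one at 286 bp with 189.4, RpS15, a protein of the small ribosomal subunit, one at 34 bp with 181.7, and vig2 one at 35 bp with 181.6. All but GstE1 lay below the members' median signal of 245.2. In each of the 3 replicates GstE1 kept its summit downstream, at 25, 30 and 37 bp. CG32195 and vig2 did so too, while the summit of RpS15 was upstream in replicate 2.

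Nearly as many members were also upstream of another start as were not. The summit lay within 500 bp upstream of a further TSS of the same gene for 82 members and of another protein-coding gene's TSS for 58, which was on the opposite strand for 54 of them. Counting 41 with both, 99 members (47.1%, 40.2 to 54.1%) were thus also upstream of another coding TSS, and 111 (52.9%) were downstream only. No such share is given here for the weaker pooled peaks or for all bases, so the count does not set the members apart. Genes of members had a median of 2 annotated TSSs, as had genes with an upstream peak, while the median over all protein-coding genes was 1. The downstream-only members lay farther from their TSS, at a median of 278 bp, than the 99 others at 57 bp. Each summit was assigned to its nearest TSS, so the 99 had to lie nearer to their own TSS than to the other. This rule limits their distances, and its part in the contrasts of distance and annotation was not tested. Of the downstream-only summits 58 were intronic and 52 exonic, while the 99 others included 13 intronic ones. Their median signal was 236.2, against 287.3 for the members also upstream of another TSS.

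The strongest members were mostly also upstream of another TSS, as were 14 of the 20 with the highest signal. PNPase, a mitochondrial exoribonuclease, had the highest signal of all, 1864, with its summit in the 5′ UTR at 72 bp (peak at 3R:31404496-31404837) and a further TSS of its own 100 bp on. It ranked 15, 13 and 17 among the 30000 peaks of replicates 1, 2 and 3, where rank 1 is the strongest. Chro, which encodes the chromodomain protein Chromator of polytene interbands, followed with a signal of 1802 in the 5′ UTR at 93 bp (3L:22878725-22879096) and ranks of 23, 15 and 19. That summit also lay 198 bp upstream of the opposite-strand gene Ssl1, a subunit of the general factor TFIIH. Both stayed downstream in every replicate, PNPase at 56, 72 and 76 bp and Chro at 78, 98 and 74 bp.

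The third in signal was the exception. The summit of ph-p, which encodes the Polycomb subunit Polyhomeotic, lay 405 bp into the 5′ UTR of its first exon (X:2137693-2138105) with a signal of 1479 and was not within 500 bp upstream of another coding TSS. Its ranks were 36, 33 and 22, and its summit lay 449, 426 and 399 bp downstream in the replicates. CG11309 was next, in intron 1 at 83 bp with a signal of 1386 and ranks of 38, 42 and 38, and it was also 122 bp upstream of CG7632. Signals between 902 and 1187 were found at CG9147, at mRpL23 (a mitochondrial ribosomal protein), at CG8320, at CG8360, at Fer2LCH and at RpL7 (a protein of the large ribosomal subunit). Each of these 6 had its summit upstream of a neighbouring gene on top of lying downstream of its own TSS, at 69 bp from Ripalpha for RpL7 and at 311 bp from Fer1HCH for Fer2LCH. The last pair, on opposite strands, encodes the light and heavy chains of ferritin. The summit there lay in intron 1 of Fer2LCH, 213 bp from its TSS, and ranked 132, 109 and 108. Fer2LCH had another TSS 685 bp before the summit. Somewhat weaker members in 5′ UTRs, each also upstream of a neighbouring gene or, at CG10413, of a further TSS of its own, were CG8892 (884.0 at 64 bp), tank (873.0 at 118 bp), CG10413 (854.2 at 110 bp), CG6565 (799.8 at 11 bp) and Elp5, a subunit of the Elongator complex (672.2 at 67 bp). At CG8892 no peak of replicate 1 held the summit, though one that overlapped the pooled peak ranked 133.

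**Figure D3:**
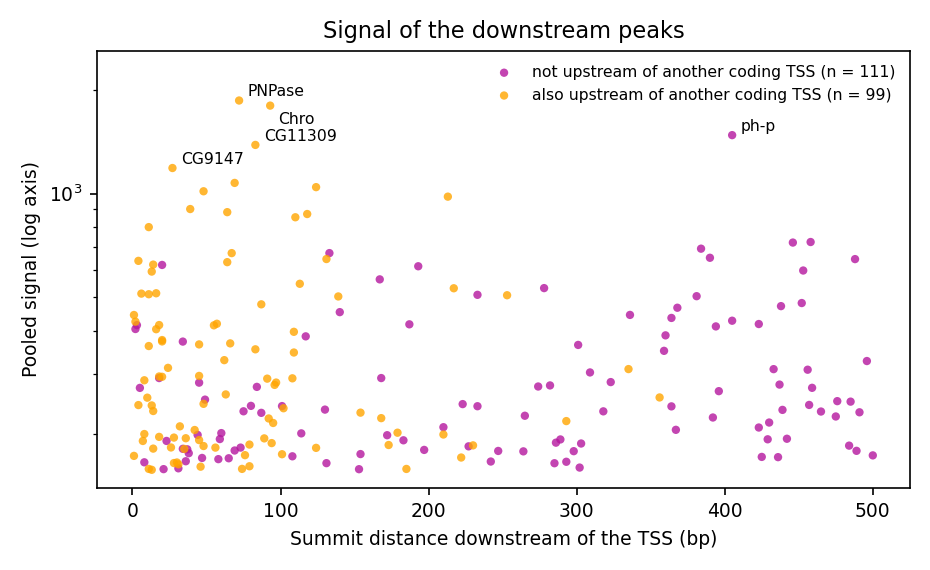
Pooled signal of each of the 210 members (y axis, log scale, the authors' signal value) against summit distance downstream of the TSS in bp (x axis), coloured by whether the summit is also within 500 bp upstream of another coding TSS. Signals run up to 1864, and of the 5 labelled genes ph-p alone is not upstream of another TSS.

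Among downstream-only members, ph-p was followed by several in first introns. CG31612 had a signal of 724.0 at 458 bp, bchs of 721.4 at 446 bp, scramb2 of 692.5 at 384 bp, CG9992 of 672.3 at 133 bp and wun, a lipid phosphate phosphatase that guides germ cells, of 651.6 at 390 bp. In the replicates bchs ranked 166, 304 and 227 with summits at 446, 446 and 427 bp, and wun ranked 213, 341 and 470 with summits at 390, 408 and 390 bp. For scramb2 the ranks were 398, 262 and 178. CG31612 stood apart in replicate 1, where the peak holding the summit ranked 6106 and its own summit was at 295 bp, against ranks of 212 and 253 and summits at 457 and 463 bp in replicates 2 and 3. A further peak in replicate 1 that overlapped the pooled peak without holding its summit ranked 257.

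The 210 members belonged to 206 genes, or 1.48% of the 13945 protein-coding genes. Of these, 24 genes also had an upstream summit in the optimal set, and 4 genes had 2 members each, namely scramb2, Trpm, CHES-1-like and eIF3h, of which Trpm and CHES-1-like are named after their values were seen. At scramb2 and eIF3h the peaks of the pair overlapped, while at Trpm and CHES-1-like they lay at different TSSs of the gene. Members were on 2L (43), 2R (40), 3L (46), 3R (48) and X (33), and none was on chromosome 4, which held 10 of the 3237 optimal peaks.

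Genes of the cytosolic ribosome were the most frequent of the gene groups counted. Of 93 such genes, 15 (16.1%) had a downstream member, against 1.48% of all protein-coding genes, and 44 (47.3%) had an upstream summit, against 976 of all 13945. The group was thus well represented on either side, and no gene of it had both. With only the 5′-most TSS of each gene, 23 had a downstream summit. All 15 summits lay in an exon within 39 bp of the TSS. RpL7 at 39 bp was the strongest (signal 902.5), followed by RpL24 at 4 bp (638.3) and RpL30 at 13 bp (594.2), all proteins of the large subunit. Their replicate ranks were 108, 132 and 240 for RpL7, 262, 352 and 265 for RpL24, and 338, 324 and 361 for RpL30. The replicates placed the summit downstream in all 3 cases for 5 of the 15 members and not for the other 10. RpL24 had its summit 14 and 16 bp downstream in replicates 1 and 3 and 25 bp upstream in replicate 2, whereas RpL7 and RpL30 were downstream in every replicate. Of the 15 summits, 12 were also upstream of another coding TSS. At mitochondrial ribosomal genes the count was 1 of 75 (mRpL23), and at aminoacyl-tRNA synthetases it was 1 of 32 (SerRS), where the summit was also 9 bp upstream of CG17260. Translation factors had 3 of 52, with eEF2 (the ribosomal translocase) at 10 bp and eIF3h (an initiation factor subunit) with its 2 peaks.

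Of 146 transcription factors of development, 7 (4.79%) had a downstream member, and all 7 were downstream only, against 111 of all 210 members. Eip75B, an ecdysone-induced nuclear receptor, had a signal of 621.1 in the 5′ UTR at 20 bp with ranks of 530, 327 and 184. Its replicate summits lay 70 bp downstream, 35 bp upstream and 43 bp downstream. Stat92E, the transcription factor of the JAK/STAT pathway, had 444.7 in the 5′ UTR at 336 bp with ranks of 290, 809 and 658, and stayed within 335 to 353 bp. Dp, the partner of E2F, had 427.8 in intron 1 at 405 bp with ranks of 953, 750 and 541. An upstream summit was found at 21 of the 146 genes.

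Chromatin regulators had a downstream member at 7 of 84 genes (8.33%), 5 of them downstream only, and an upstream summit at 7 as well. After Chro and ph-p, the strongest was E(z), the methyltransferase of histone H3 lysine 27, with a signal of 353.4 at 83 bp and ranks of 488, 1446 and 1213. Its summit was also 99 bp upstream of Cnep1r2. The tandem copy of ph-p, ph-d, was among the 7 and is named here after its values were seen. Reads from this near-identical pair may be hard to assign to either copy, which touches ph-p as well. Signalling genes had 5 of 122, with Stat92E counted again, Lk6 (a kinase of the initiation factor eIF4E, signal 252.5) and InR (the insulin receptor, 195.0). RNA-binding proteins had 2 of 51, Sxl with a signal of 435.9 at 364 bp and the hnRNP gene sqd with 158.9 at 74 bp. Sxl held its place in all replicates, with ranks of 753, 707 and 661 and summits at 422, 362 and 361 bp. Heat shock and chaperone genes had 1 of 34 (DnaJ-1, an Hsp40 co-chaperone), and muscle and cytoskeleton genes 1 of 68 (alphaTub84B, an alpha-tubulin). Shares of 1.33% for mitochondrial ribosomal genes and 1.47% for cytoskeletal genes were near the 1.48% of all genes.

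Members had weaker median ranks than upstream peaks in every replicate. In the pooled list the median signal was 245.2 for members, with a range of 157.9 to 1864, against 292.7 for upstream peaks and 247.5 for the whole optimal set. The median rank in replicates 1, 2 and 3 was 1570, 1477 and 1413 for members, against 1165.5, 1146 and 1327 for upstream peaks. Members thus stood 404.5, 331 and 86 places further down the list (mean 273.8 ± 166.8, SD, n = 3; exact sign-flip permutation test over replicates, two-sided, p = 0.25). That p is the smallest that 3 replicates allow, so the test cannot reach significance in this design. Among the 1618 strongest optimal peaks the difference was smaller, 0.0589% of the list length against 0.913% over all. The whole optimal set had median ranks of 1649, 1588.5 and 1605.5 in replicates 1, 2 and 3, weaker than the members' in each.

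Most members recurred among the strongest peaks of each replicate. The summit lay inside one of the 3237 strongest peaks for 170 members (81.0%) in replicate 1, 176 (83.8%) in replicate 2 and 166 (79.0%) in replicate 3, against 80.7%, 87.5% and 79.3% of the whole optimal set. The mean was 81.3 ± 2.40% (SD, n = 3), against 85.8 ± 5.81% for upstream peaks. In all 3 replicates at once the count was 120 members (57.1%), against 66.2% of upstream peaks and 60.4% of the whole set. The members' shares were near those of the whole set, and the optimal set was itself derived from these replicates.

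Replicate 3 stood apart from the others in which members it favoured. Downstream-only members lay inside a strong peak in 73.0%, 80.2% and 87.4% of cases in replicates 1, 2 and 3, against 89.9%, 87.9% and 69.7% of members also upstream of another TSS. The differences, the first class minus the second, were -16.9, -7.70 and 17.7 percentage points (exact sign-flip permutation test over replicates, two-sided, p = 1). In the same way intronic members stood 178 and 311 places further down the list than exonic ones in replicates 1 and 2, and 335 places further up in replicate 3 (p = 1, same exact test). The 3 replicates therefore show no common direction for either contrast. Among members with the widest spread of ranks, Gpdh1 ranked 2489, 1364 and 22945 and RpL12 ranked 1930, 2036 and 22147, both far weaker in replicate 3. Nup98-96, a nucleoporin gene, ranked 2140, 1476 and 10683. By contrast, cora, a septate junction gene, ranked 9729, 3853 and 1462 and was weakest in replicate 1, and milt, an adaptor for mitochondrial transport, ranked 5748, 9649 and 1044 and was weakest in replicate 2. SerRS and CG6565 had no peak at all over the summit in replicate 3.

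**Figure D4:**
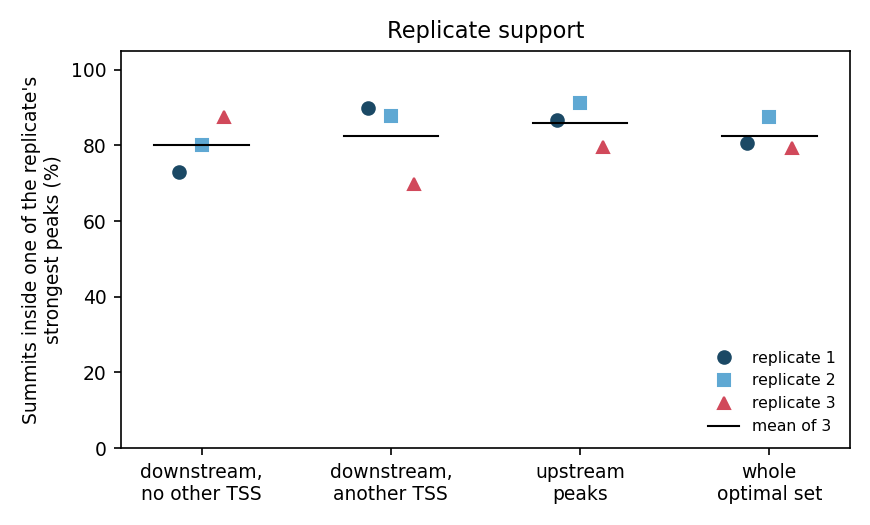
Percent of summits inside one of the 3237 strongest peaks of a replicate (y axis) for downstream-only members, members also upstream of another coding TSS, upstream peaks and the whole optimal set (x axis), with each replicate a point and the mean a line. Replicate 3 is the highest point for downstream-only members, at 87.4%, and the lowest for the other classes.

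The side of the TSS on which a replicate placed its own summit depended on distance. Where a replicate peak held the member's summit, its own summit was also 1 to 500 bp downstream for 172 of 206 members in replicate 1, 183 of 206 in replicate 2 and 180 of 201 in replicate 3, a mean of 87.3 ± 3.31% (SD, n = 3). The median shift between pooled and replicate summit was 20, 15 and 16 bp. All 3 replicates placed the summit downstream for 141 members (67.1%, 60.3 to 73.5%). That share was 22 of 65 (33.8%, 22.6 to 46.6%) for summits within 50 bp of the TSS, 30 of 36 at 51 to 100 bp, 30 of 34 at 101 to 200 bp, 30 of 32 at 201 to 350 bp and 29 of 43 at 351 to 500 bp, where some summits passed the outer limit. Upstream peaks showed the same pattern, with all 3 replicates on the upstream side for 43 of 85 (50.6%) within 50 bp and 289 of 308 (93.8%) at 201 to 350 bp. By annotation, 57 of 71 intronic members (80.3%) and 83 of 138 exonic ones (60.1%) were downstream in all replicates. The 65 summits within 50 bp were therefore the ones whose side was least often repeated.

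**Figure D5:**
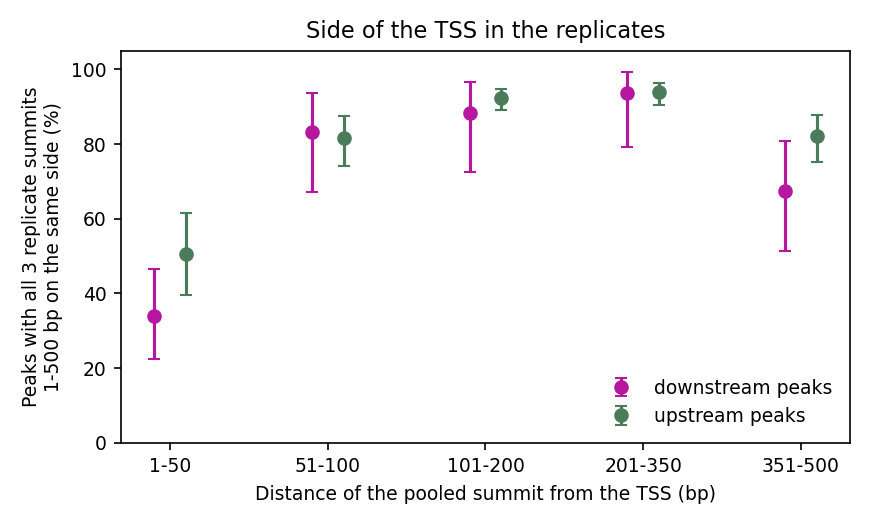
Percent of peaks whose summit all 3 replicates place 1 to 500 bp on the same side of the TSS (y axis) by distance of the pooled summit from the TSS in bp (x axis), for members and upstream peaks. Bars are exact 95% binomial intervals for counting error only, and the share of members is 33.8% within 50 bp and 93.8% at 201 to 350 bp.

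Member windows lay between upstream peaks and ordinary downstream sequence in base composition. In windows of 201 bp around the summit, the mean GC content was 38.7% ± 7.48 for members (SD over 210 windows), against 33.9% ± 6.87 for upstream peaks and 35.1% ± 6.96 for the whole optimal set. Windows centred 108 bp downstream of the 5′-most TSS of all 13945 protein-coding genes averaged 44.4% ± 7.20. Intronic members had 36.0% and exonic members 40.0%.

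The 12 motifs were searched on both strands. They include GAGAG, the repeat CACACACA, the DNA replication-related element written as TATCGATA and the core of Motif 1 written as GGTCACAC. The E boxes were searched as CAGCTG and, in their other common form, as CACGTG. The site of the early activator Zelda was searched as CAGGTAG, the TATA box was taken as TATAAA, and a short form of the initiator was taken as TCAGT. The last were CAGCNCTA, GAANNTTC and CTAGCAAC. None lies wholly within another, though neighbouring matches may share bases. TATAAA was found in 31.9% of member windows (25.7 to 38.7%), against 42.3% of upstream windows, 37.8% of the whole set and 17.5% of windows downstream of all coding genes. The all-gene windows were all centred 108 bp from the TSS and the members' 1 to 500 bp from it, so they cover unlike positions. CACACACA was found in 6.67% of member windows (3.69 to 10.9%), against 1.87% of upstream windows, 3.89% of the whole set and 3.54% downstream of all genes, and in 8 of the 71 intronic windows (11.3%) and 6 of the 138 exonic ones (4.35%). GAGAG, to which the GAGA factor binds, was found in 19.5% of member windows (14.4 to 25.5%), against 22.6%, 22.7% and 20.4% of the same comparison windows. TATCGATA had 2.86% in members, against 4.69%, 1.82% and 1.20%, and TCAGT had 35.2%, against 32.1%, 34.3% and 32.1%. For GAGAG, TATCGATA (1.06 to 6.11%) and TCAGT the members' interval includes all 3 comparison shares, so these differences were not detectable with 210 windows. For TATAAA and CACACACA it includes the share of the whole set, of which the members are part. The TATAAA interval lies below the share of upstream windows and above that of windows downstream of all genes. The CACACACA interval lies above the shares of upstream windows and of windows downstream of all genes. The interval covers counting error only, and 12 motifs were searched. Across the member, upstream, whole-set and all-gene windows, the TATAAA share fell as mean GC content rose. GC content was lowest in upstream windows and highest downstream of all genes. Within the members this did not hold, with TATAAA in 26.8% of intronic windows, lower in GC content, and 34.8% of exonic ones. The part of GC content in the TATAAA share was not tested.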

How the data were processed

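Per the labels and the deposited notes, the authors called peaks on each of 3 replicates and on the pooled replicates against a control (30000 peaks per list), on dm6, and derived the optimal set by irreproducible discovery rate. It holds the 3237 strongest pooled peaks. For the aligner, the peak caller and the threshold, nothing is given in the sources used here. The deposited signal (column 7) ranked the peaks. The deposited −log10 q-value (column 9) only ordered ties. Read depth is unknown, and signal was compared only within a list.

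The summit (start plus offset) was assigned to the nearest TSS of any transcript of a protein-coding gene of Ensembl release 115. For 3 members, 2 genes share the TSS base. Sequence is from RefSeq's copy of Release 6. A replicate peak matched where it held the pooled summit, and its strongest such peak was used. The 3237 strongest replicate peaks counted as strong. Ranks were compared with an exact sign-flip permutation test over replicates. Python 3.11.15, NumPy 2.4.6, pandas 2.3.3, SciPy 1.17.1 and matplotlib 3.10.9 were used. Placement, annotation and motif search were tested on simulated data. The members, the 10 gene lists (744 genes, 31 further symbols unmatched) and the motifs were chosen with earlier results of these data known.

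Named genes were the 20 strongest members, the 3 strongest of each list, the 5 strongest of each annotation class, the 3 nearest the TSS and the 3 nearest the limit with the 3 just outside, the 10 with the best lowest replicate rank, and the 5 with the widest spread of ranks. Alternatives changed the peaks kept, the replicates, the limit, the TSSs, the summit, the motif window and the match. The alternatives for coding, 5′ UTR, other-TSS, side and ribosomal gene values, and overlap matching, were added after seeing the data.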

Additional observations from a re-analysis of the deposited data

How the results depend on the processing

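Of 102 repeats of 12 results, 83 stayed within a tolerance and 19 moved beyond it. The tolerance was 1.5 times for counts, 1 SD over replicates or the exact interval for shares, and the same sign for the rank difference. Only the rank difference could reverse, and it kept its sign in every repeat. That difference was 0.913% of the list, and 0.0589 to 1.24% under the alternatives, lowest among the 1618 strongest peaks. Among the 1618 strongest optimal peaks, 104 members remained, 96.5% of them inside strong replicate peaks, and 23 listed genes had a member instead of 41. A limit of 250 bp gave 15.6% intronic, 82.3% in a 5′ UTR, 64.6% also upstream of another TSS and 78.5% support. TSSs of all genes gave 263 members, 50.2% of them in a 5′ UTR. With only the 5′-most TSS of each gene, 68.7% were also upstream of another coding TSS and 23 cytosolic ribosomal genes had a member instead of 15. Admitting all replicate peaks gave 97.3% support, and a motif window of 50 bp on each side gave 8.57% GAGAG. Keeping peaks strong in 2 replicates, with the other left out in turn, left 134 to 149 members. Support in the replicate left out was 80.5 to 89.6%. The optimal set was derived from all 3 replicates, so that support was not independent of the selection. Of these members, 43.6 to 54.4% were also upstream of another TSS. In both replicates used, 76.5 to 81.4% were downstream, a share that by construction needs fewer replicates. The coding share ranged from 0.746 to 2.04% over the alternatives. No paired analysis was possible because all samples form 1 group, and peak classes were compared within each replicate. Depth is unknown, so counting intervals do not cover it.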
